A study of Homo sapiens with 8 samples.

Results

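The transcriptome of HepG2 cells after curcumin (Cur) with piperine (Pip) was set beside that of untreated HepG2 cells, with 1 RNA-seq library for each, 2 of the 8 libraries of the study. HepG2 is a human hepatocellular carcinoma (HCC) line that makes many liver proteins. Treatment lasted 48 h, with Cur at 30 µM and Pip at 6 µM, and the control cells were kept for 48 h without any agent. The stocks of Cur and Pip were made in dimethyl sulfoxide (DMSO). No DMSO was described for the control, so the solvent cannot be told apart from the agents. The other 6 libraries are HepG2 cells given 2500 µM sodium pentaborate pentahydrate (NaB) with or without the same Cur and Pip, and cells labelled Hep3B, another HCC line, that were untreated or given Cur and Pip, 1700 µM NaB, or all 3 agents. Cur is the polyphenol of turmeric and Pip an alkaloid of pepper that slows the breakdown of Cur; they were given together, so their effects cannot be told apart. The study asked how these agents change gene expression in HCC cells.

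The deposited values are FPKM (fragments mapped to a transcript, scaled by its length and by the size of the library) of assembled transcripts without gene names. Each transcript was assigned to the GENCODE gene on the same strand that covers 50% or more of its exons, and FPKM was summed per gene. This placed 85.5% of the 26089 transcripts of the control and 70.4% of the 36652 transcripts after Cur and Pip. Of 15490 genes that reached 1 FPKM in any of the 8 libraries, 12590 reached it in 1 or both of the 2 libraries compared. Fold changes are log2((FPKM + 1) after Cur and Pip / (FPKM + 1) in the control), a scale on which low genes change too little. Genes count as past the threshold where the absolute value exceeded 1.5, the fold part of the rule of the study. The study also required a p-value cutoff in Cuffdiff and a minimum of counts, which were not applied here. With 1 library per condition no difference between these libraries has a replicate check, and the pair has no p-value. In bulk RNA, fewer cells of a type and less RNA per cell cannot be told apart. The bases listed under transcripts of 300 nt or more came to 9.95 Gb in the control and 9.12 Gb after Cur and Pip. The 95% intervals printed below are those of Cufflinks. They cover the uncertainty of the estimate within a library and not the variation among cultures.

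The HepG2 label was checked against 24 hepatocyte genes. Of these, 21 had an FPKM of at least 1 in the control and 24 after Cur and Pip. The 3 that no transcript was assigned to in the control are ALB, which encodes serum albumin, APOA2 and APOC3. Of the 21 listed in both libraries, 9 were past the threshold downward and none upward, and 19 had a negative fold change. Their median log2 fold change was −1.38. Over all genes listed in both libraries, 7.34% were past the threshold downward. In HepG2, ALB reached 7518 FPKM after NaB and 2998 after Cur and Pip, so its absence from the control table is not readable as silence; FTH1 and FTL, the ferritin subunits that cells use for iron storage, were also listed at 0 in both libraries while their canonical exons were covered in both. The markers of other cell types were 8 endothelial, 8 fibroblast, 7 cholangiocyte and 8 immune genes. Those without a value in any library are not counted. Among the rest, none of 3 endothelial genes and 1 of 5 fibroblast genes (PDGFRB) reached 1 FPKM in the control. Of 6 cholangiocyte genes 5 did, and 6 after Cur and Pip, with summed levels of 708.6 and 649.5 FPKM. Of 4 immune genes, LYZ, which encodes lysozyme, was at 1390 FPKM in the control and 150 after Cur and Pip, and CD14 was at 3.38 and 0.59. The part of these markers in the results was not tested.

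As background, Cur is an electrophile that reacts with thiol groups of proteins. Cells answer such stress through NRF2, a factor that drives antioxidant genes, through HSF1, which drives chaperone genes, and through ATF4 and CHOP, which act when translation is slowed. MAP kinase signals raise the immediate early genes, among them the AP-1 subunits of the FOS and JUN families. Hepatocytes are known for secreting plasma proteins, clotting factors and lipoproteins under the control of HNF4A, CEBPA and related factors.

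Promoters of 5 genes from the groups described below show the letters by which such groups are commonly read. They are the 250 bases before the start of the gene in RefSeq, GRCh38.p14, written 5′ to 3′ on the strand of the gene, with the motif of interest in capitals.
HSPA6 (chr1:161524290-161524539, plus strand, heat shock element): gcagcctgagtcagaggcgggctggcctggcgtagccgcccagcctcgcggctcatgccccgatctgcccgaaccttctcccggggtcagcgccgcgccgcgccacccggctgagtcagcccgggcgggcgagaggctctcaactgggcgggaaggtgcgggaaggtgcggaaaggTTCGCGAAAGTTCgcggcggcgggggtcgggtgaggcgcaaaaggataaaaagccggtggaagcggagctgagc
GCLM (chr1:93909431-93909680, minus strand, antioxidant response element): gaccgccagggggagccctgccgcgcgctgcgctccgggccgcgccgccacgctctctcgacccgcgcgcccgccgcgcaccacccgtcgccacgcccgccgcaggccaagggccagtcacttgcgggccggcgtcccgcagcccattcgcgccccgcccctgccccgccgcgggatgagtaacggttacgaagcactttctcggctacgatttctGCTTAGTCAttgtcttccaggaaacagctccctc
VGF (chr7:101165570-101165819, minus strand, cyclic AMP response element): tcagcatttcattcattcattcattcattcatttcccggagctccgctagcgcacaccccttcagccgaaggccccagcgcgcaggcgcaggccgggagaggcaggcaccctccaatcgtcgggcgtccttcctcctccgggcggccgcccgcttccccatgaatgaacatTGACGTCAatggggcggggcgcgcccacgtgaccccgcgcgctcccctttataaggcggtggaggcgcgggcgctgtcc
MCM3 (chr6:52284743-52284992, minus strand, E2F site): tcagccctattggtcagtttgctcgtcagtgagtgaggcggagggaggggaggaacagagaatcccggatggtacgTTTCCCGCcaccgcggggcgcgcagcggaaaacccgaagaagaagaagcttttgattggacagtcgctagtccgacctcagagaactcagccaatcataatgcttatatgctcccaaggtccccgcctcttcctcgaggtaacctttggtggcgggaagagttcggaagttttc
CCNB2 (chr15:59104896-59105145, plus strand, 4 CCAAT boxes and 1 CHR): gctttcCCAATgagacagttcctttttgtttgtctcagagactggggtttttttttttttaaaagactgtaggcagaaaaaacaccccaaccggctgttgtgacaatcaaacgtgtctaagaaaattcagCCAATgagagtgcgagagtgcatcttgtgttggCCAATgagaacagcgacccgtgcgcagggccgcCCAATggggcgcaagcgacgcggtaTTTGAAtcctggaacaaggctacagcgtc

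Motifs were searched on both strands of 27305 RefSeq promoters of this length. The heat shock element, a row of 3 units of GAA or its complement, was in 0.439% of them and in 5 of the 22 heat shock genes that matched a promoter, of 25 measured. The antioxidant response element, TGACNNNGC, was in 11% of all promoters and in 4 of 18 matched NRF2 targets, of 27 measured. It was also in 8 of 33 matched genes of G1/S and replication, so it does not single out the NRF2 list. Its counts were 3 of 15 for acute phase and plasma proteins, 4 of 21 for immediate early genes and 4 of 22 for heat shock genes. For mitosis they were 4 of 33 and for coagulation and complement 2 of 23. In HSPA6 the letters of this element overlap an AP-1 site, TGANTCA. That motif was in 6.6% of all promoters and in none of 21 matched immediate early genes, of 28 measured. An E2F site, TTTCCCGC or TTTGGCGC, was in 1.96% of all promoters and in 14 of 33 matched genes of G1/S and replication, of 43 measured. A CCAAT box together with a CHR (TTTGAA, the cell cycle homology region) was in 4.85% of all promoters and in 17 of 33 matched genes of mitosis, of 40 measured. The cyclic AMP response element, TGACGTCA, was in 1.77% of all promoters. A match is a run of letters and does not show binding, and lack of a match says only that these letters are not in the window.

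Of the 12590 genes, 2583 (20.5%) were past the threshold, 1208 (9.59%) higher and 1375 (10.9%) lower after Cur and Pip. Many of these were assembled in 1 library alone, so genes listed in both are described first. Of 10866 such genes, 1364 (12.6%) were past the threshold, with 566 (5.21%) higher and 798 (7.34%) lower, around a median log2 fold change of −0.02. The shares higher and lower are the background for the list counts below. A second measure spread the FPKM of each transcript over the exons of the canonical GENCODE transcript, so that a gene broken into pieces does not gain. By this depth over canonical exons 368 (3.39%) were higher and 795 (7.32%) lower, around a median of −0.11. Of the 1364 genes, 64.1% passed in the same direction by both measures, 283 higher (2.6% of the 10866) and 591 lower (5.44%), together 8.04%.

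**Figure D1:**
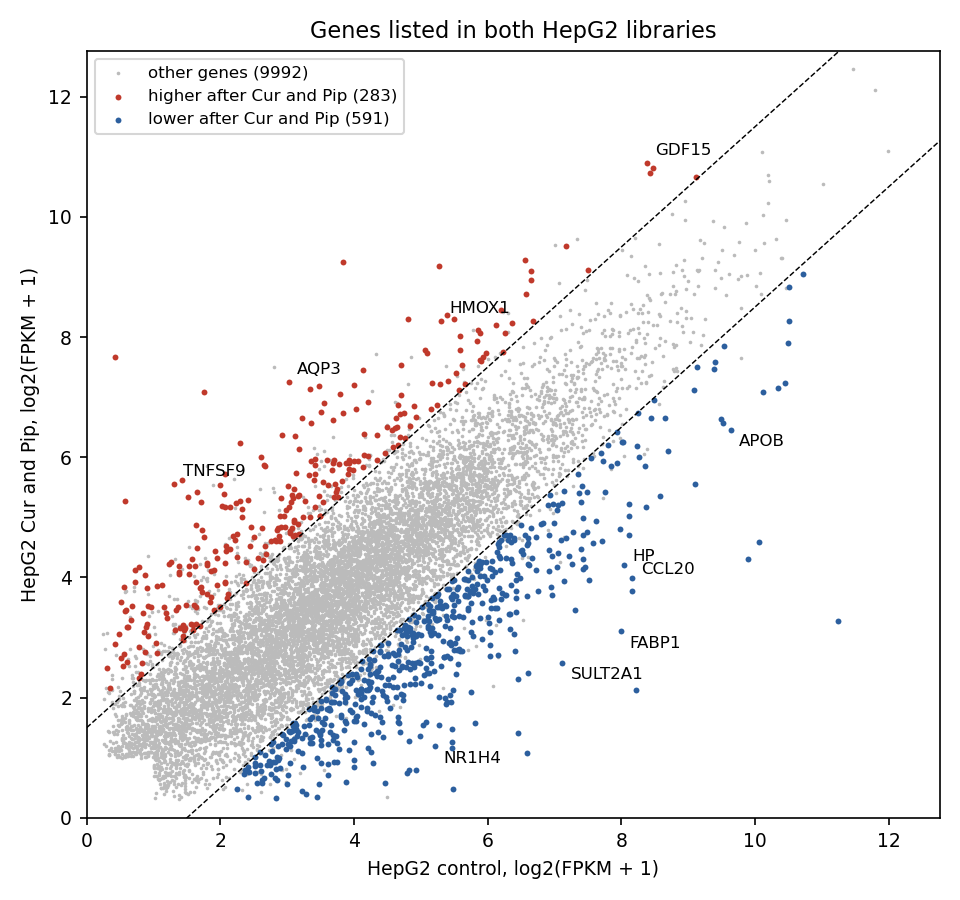
Level of each of 10866 genes listed in both HepG2 libraries, control on the x axis and Cur and Pip on the y axis, both as log2(FPKM + 1). Dashed lines mark a log2 fold change of 1.5 in either direction, red points are the 283 genes higher and blue points the 591 lower by both measures, and grey points beyond a line passed by summed FPKM alone; FABP1 and SULT2A1 lie far below the lower line and TNFSF9 and AQP3 far above the upper one.

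Of the 15 protein-coding genes with the largest increase by summed FPKM, 9 are given first. TNFSF9, whose product binds 4-1BB on T cells and which lies on chromosome 19 from 6531026 to 6535924, was at 1.48 FPKM (95% interval 1.13 to 1.83) in the control and 46.0 (43.4 to 48.6) after Cur and Pip. Its log2 fold change was 4.24 by summed FPKM and 4.23 over canonical exons. AQP3, an aquaporin that carries water and glycerol, went from 7.13 (6.36 to 7.90) to 150.6 FPKM (143.7 to 157.5), a log2 fold change of 4.22. Both are covered by 1 transcript in each library. MMP3, the matrix protease stromelysin, was at 1.70 and 48.2 FPKM. Further genes with low control levels were RRAD, a small GTPase that dampens calcium channels (3.21 and 52.0 FPKM), VGF, a secreted neuropeptide precursor (2.97 and 45.6), and HBEGF, an EGF receptor ligand (2.26 and 37.3). PTGR1, a reductase of reactive lipids, was at 9.10 and 140.4 FPKM, UPP1, which breaks down uridine, at 6.58 and 81.6, and SERTAD1, a partner of CDK4, at 8.33 and 99.2. In each of these genes the Cufflinks intervals of the libraries are disjoint. The same holds for all 1364 genes past the threshold and listed in both libraries, so it adds no support here.

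AKR1C4, TUSC3, MLLT11 and CBX3 also belong to the 15 genes with the largest increase, with log2 fold changes of 4.69, 3.78, 3.40 and 5.33, as do the ribosomal protein genes RPS24 and RPS28. The canonical exons of CBX3 had no depth in the control, although a transcript was assigned to it. RPS24 was at 0.35 FPKM in the control by summed FPKM and at 60.7 over canonical exons, against 203 and 198 after Cur and Pip. Most of the RPS24 difference by summed FPKM is thus a difference in which transcripts were assigned to it. Ribosomal protein genes share reads with many pseudogenes, and AKR1C4 with its AKR1C neighbours, so these values are uncertain.

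Immediate early genes were higher as a group. Of 25 listed in both libraries, 15 were past the threshold upward and none downward, with a median log2 fold change of 1.74 against −0.02 over all genes; over canonical exons the median of the 28 measured members was 1.83. IER5 was at 11.9 FPKM in the control and 97.8 after Cur and Pip, KLF4 at 0.40 and 7.33, and MAFF, a small MAF partner of NRF2, at 9.68 and 57.8. IER5, an early gene that acts on HSF1, had the highest log2 fold change of the list among genes listed in both libraries, 2.94. Among AP-1 subunits, FOS was at 7.91 and 40.1 FPKM, FOSB at 3.24 and 22.1, JUNB at 17.4 and 63.8, and ATF3 at 5.19 and 27.5. JUN was at 42.2 and 111 FPKM, a log2 fold change of 1.38 that does not pass, and JUND at 112 and 77.1. The zinc finger factor EGR1 was at 24.3 and 116 FPKM. FOSL1 was listed at 0 in the control, where its canonical exons had a depth of 4.60, and at 50.02 FPKM after Cur and Pip. ARC, a gene of activity-dependent transcription, was listed at 0 in the control and at 31.0 FPKM after Cur and Pip.

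The 18 measured phosphatases and Sproutys that feed back on MAP kinases had a median of 0.28, with 3 past the threshold upward. Over all genes listed in both libraries, 5.21% were past it upward. DUSP5, which inactivates ERK in the nucleus, was at 10.7 FPKM in the control and 119 after Cur and Pip. DUSP1 was at 24.1 and 90.2, and SPRY4 at 12.2 and 46.3. These 3 genes were all of the list beyond the threshold in either direction.

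NRF2 targets split into members that were much higher and members that were not. Of 24 listed in both libraries, 7 were past the threshold upward and none downward, and 8 had a negative fold change, with a median of 0.59. HMOX1, heme oxygenase 1 on chromosome 22 from 35380361 to 35394214, was at 38.3 FPKM (35.4 to 41.1) in the control and 307 (294 to 321) after Cur and Pip, a log2 fold change of 2.97. SLC7A11, the cystine importer, went from 8.05 to 69.6 FPKM and OSGIN1, an oxidative stress growth inhibitor, from 33.0 to 213. The remaining 4 make or regenerate thiols: GCLM (11.1 and 61.1 FPKM) and GCLC (23.4 and 88.6) are the subunits of the enzyme that starts glutathione synthesis, TXNRD1 (72.7 and 348) reduces thioredoxin, and SRXN1 (58.2 and 268) repairs peroxiredoxins. NQO1, a quinone reductase often used as an NRF2 marker, was at 312 and 204 FPKM, and AKR1B10 at 271 and 141. AKR1C2 was listed at 584 FPKM in the control and at 0 after Cur and Pip, and AKR1C1, which is nearly identical in sequence, at 3538 and 4433; reads of this pair cannot be kept apart.

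**Figure D2:**
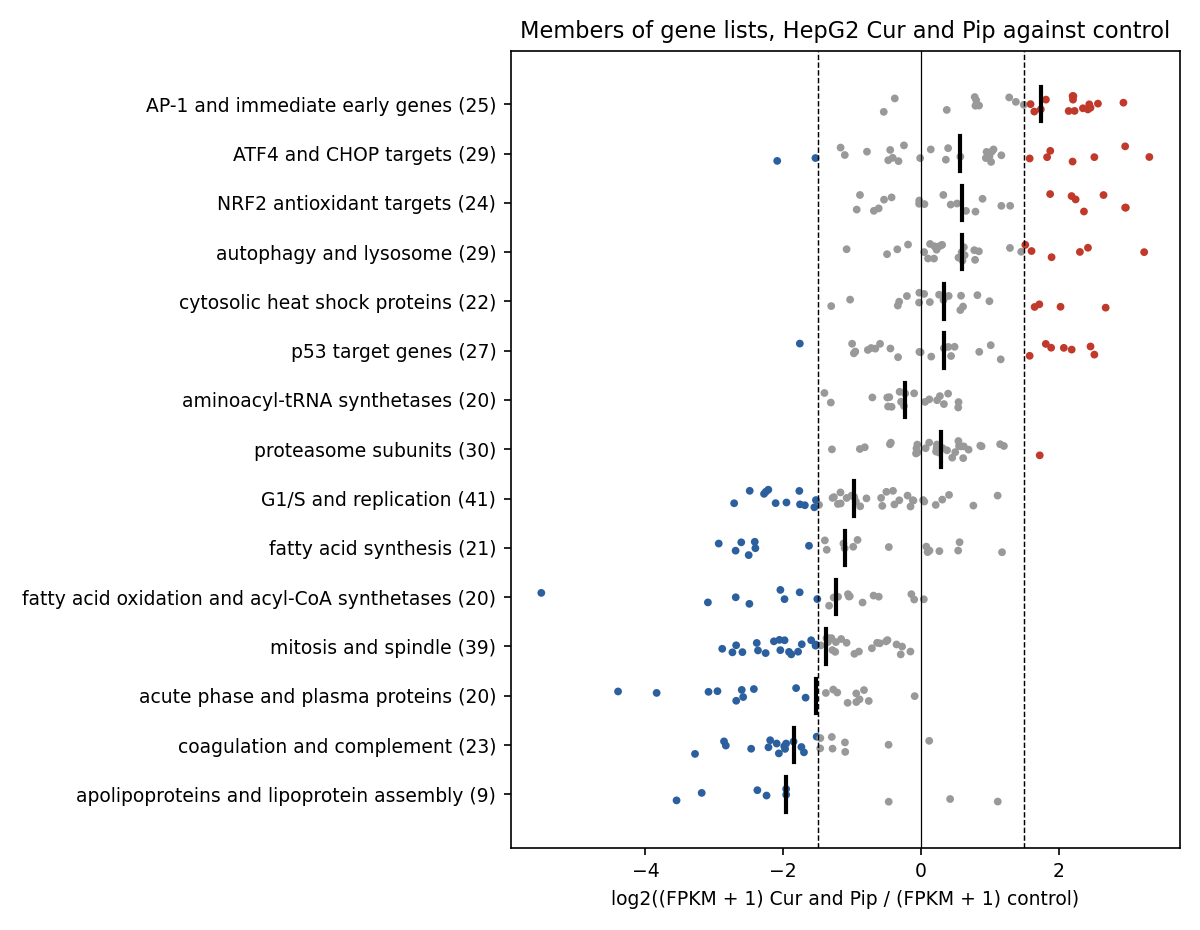
Log2 fold changes of the members of 15 gene lists that were listed in both HepG2 libraries, 1 point per gene, with the number of genes in parentheses and the median as a black bar; dashed lines mark 1.5 in either direction, and red and blue points lie beyond them. The median of the immediate early genes is 1.74 and those of the 3 lists of secreted liver proteins lie between −1.53 and −1.96.

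Of 22 heat shock genes listed in both libraries, 4 (5.21% of all genes were) were past the threshold upward and none downward, with a median of 0.33: HSPB8 (3.99 and 31.0 FPKM), BAG3 (13.7 and 58.7), HSPH1 (58.4 and 194) and HSPB1 (34.4 and 110). HSPB8 and BAG3 encode a small heat shock protein and its co-chaperone, which together send misfolded proteins to autophagy. The abundant chaperones were nearly level, with HSP90AA1 at 562 and 552 FPKM and HSP90AB1 at 1166 and 1204. HSPA6, an inducible HSP70 whose promoter is shown above, was listed at 0 in the control and at 272 FPKM after Cur and Pip. HSPD1, the mitochondrial chaperonin, was at 881 and 357 FPKM, a log2 fold change of −1.30.

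Among 29 targets of ATF4 and CHOP listed in both libraries, 7 were past the threshold upward and 2 downward, with a median of 0.57. PPP1R15A, the GADD34 subunit that restores translation by dephosphorylating eIF2, was at 16.6 FPKM in the control and 174.5 after Cur and Pip. GDF15, a stress cytokine that was already high in the control, was at 333 (316 to 349) and 1908 FPKM (1828 to 1988). CEBPB was at 45.2 and 169, SLC3A2 at 133 and 476, and SESN2 at 12.6 and 39.5. DDIT3, which encodes CHOP, was listed at 0 in the control and at 75.9 FPKM after Cur and Pip. GPT2, an alanine transaminase, and PSPH, of serine synthesis, were lower at 126 and 28.9 FPKM and 37.0 and 12.2. ATF4 itself was at 209 and 269. ER chaperones did not move together, with 3 of 22 genes past the threshold upward, 3 downward and a median of −0.14. Over all genes listed in both libraries, 5.21% were past it upward and 7.34% downward. ERN1, the IRE1 sensor, was at 4.66 and 24.6 FPKM, and P4HB, protein disulfide isomerase, at 739 and 231.

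Genes of growth arrest and death were described by 27 targets of p53 listed in both libraries, of which 7 were past the threshold upward and 1 downward, with a median of 0.33. Over all genes listed in both libraries, 5.21% were past it upward and 7.34% downward. CDKN1A, which encodes the CDK inhibitor p21, was at 68.6 FPKM (65.3 to 71.9) in the control and 292 (279 to 305) after Cur and Pip. GADD45A, of growth arrest after DNA damage, was at 47.2 and 218 FPKM, and its relative GADD45B at 7.68 and 80.5. GADD45G was listed at 0 and 12.4. TNFRSF10D, a decoy receptor for TRAIL, was at 14.2 and 55.2 FPKM. BBC3 (PUMA) and PMAIP1 (NOXA), which trigger apoptosis, were at 11.7 and 27.4 and at 1.91 and 4.88 FPKM, log2 fold changes of 1.16 and 1.01 that do not pass. Other p53 targets went the other way or stayed level, with DDB2 at 33.5 and 9.21 FPKM, CCNG1 at 84.2 and 43.0 and MDM2 at 32.7 and 46.3. Of 13 BCL2 family genes listed in both libraries, none was past the threshold. BAX was listed at 229 FPKM in the control and at 0 after Cur and Pip, where its canonical exons had a depth of 7.82.

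CDKN2B, another CDK inhibitor, was at 7.63 and 43.4 FPKM. CDKN3, a phosphatase that is expressed in dividing cells although it is named with the inhibitors, was at 30.7 and 4.98.

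Among 29 genes of autophagy and the lysosome listed in both libraries, 6 were past the threshold upward and none downward, with a median of 0.59. Over all genes listed in both libraries, 5.21% were past it upward. GABARAPL1, which coats autophagosomes, was at 10.4 FPKM in the control and 106 after Cur and Pip, and MAP1LC3B (LC3B) at 74.3 and 214. The cathepsins CTSB and CTSL, proteases of the lysosome, were at 342 and 1696 and at 47.0 and 257. SQSTM1 (p62), a cargo receptor, was listed at 322 FPKM in the control and at 0 after Cur and Pip, yet its canonical exons had depths of 269 and 280, so its listing at 0 comes from the assignment of transcripts.

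Cytokines and their receptors moved in both directions, with 6 of 18 past the threshold upward and 3 downward. Over all genes listed in both libraries, 5.21% were past it upward and 7.34% downward. IL11 was at 5.11 FPKM in the control and 63.0 after Cur and Pip, and LIF, which signals through the same receptor chain, at 3.18 and 34.99. IL6R, the interleukin 6 receptor, was at 7.47 and 38.9. CCL20, a chemokine that attracts lymphocytes, was at 286 and 14.8 FPKM, and IL1RN at 12.7 and 2.74. Of the matrix proteases and the plasminogen system, 4 of 11 were past the threshold upward and 4 downward: PLAUR, MMP3 and TIMP1 were among the higher ones, and PLAU, MMP11, MMP15 and TIMP3 were lower. PLAU and PLAUR, a protease and its receptor, thus went in opposite directions, at 20.5 and 3.30 FPKM for PLAU and 1.97 and 18.8 for PLAUR. EGF receptor ligands and receptors split in the same way, with HBEGF and AREG (7.29 and 37.0 FPKM) higher and ERBB2 (44.1 and 14.5), ERBB3 (43.9 and 10.6) and TGFA (11.8 and 3.50) lower.

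Genes of secreted liver proteins were lower in 3 lists. Of 23 genes of coagulation and complement listed in both libraries, 15 were past the threshold downward and none upward, with a median of −1.85. SERPINF2, which inhibits plasmin, was at 175 FPKM in the control and 17.1 after Cur and Pip, C5 at 20.4 and 2.01, and CFI, complement factor I, at 130 and 17.1. C3, the central complement protein, was at 541 and 139 FPKM. Of 20 acute phase and plasma proteins, 10 were past the threshold downward and none upward, and all 20 had a negative fold change, with a median of −1.53. SAA4, a constitutive serum amyloid A, was at 286 and 12.6 FPKM, HP (haptoglobin) at 262 and 17.4, and FGA (fibrinogen alpha) at 276 and 31.6. SERPINA1, alpha-1 antitrypsin and the highest member, was at 4069 and 2193 FPKM, a log2 fold change of −0.89. The lists of hepatocyte genes overlap in members, so their counts do not add up.

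The apparatus that builds lipoproteins was lower as well. Of 9 genes listed in both libraries, 6 were past the threshold downward and none upward, with a median of −1.96. MTTP, which loads lipid onto apolipoprotein B, was at 27.3 FPKM in the control and 1.42 after Cur and Pip, and APOB itself at 796 and 86.9. LIPC, hepatic lipase, was at 34.4 and 5.82, and APOA1 at 2078 and 1502. APOE was listed at 1652 FPKM in the control and at 0 after Cur and Pip, while its canonical exons had depths of 1349 and 331. APOA2 went the opposite way, listed at 0 in the control and at 764 FPKM after Cur and Pip, with canonical depths of 304 and 754.

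FABP1, the liver fatty acid binding protein on chromosome 2 from 88122982 to 88128062, had 1 of the lowest fold changes. It was at 254 FPKM (239 to 269) in the control and 7.64 (5.97 to 9.30) after Cur and Pip, a log2 fold change of −4.88. SULT2A1, which sulfates bile acids and steroids, went from 138 (131 to 144) to 4.98 FPKM (4.38 to 5.58), and SERPINA7, the thyroxine carrier, from 96.7 to 4.32. NR1H4, the bile acid receptor FXR, was at 36.0 and 1.28 FPKM. Among 15 hepatocyte transcription factors listed in both libraries, NR1H4 was past the threshold downward and CEBPB upward. HNF4A was at 70.7 and 26.6 FPKM, and CEBPA at 69.8 and 25.5, log2 fold changes of −1.37 and −1.42, and over canonical exons −0.68 and −1.42. NR0B2 (SHP), a target of FXR, was listed at 139 in the control and at 0 after Cur and Pip.

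The other 15 lowest genes include PAQR8, a membrane progestin receptor (55.3 and 1.99 FPKM), ETNPPL, which breaks down phosphoethanolamine (43.4 and 1.24), GJB1, a gap junction protein of hepatocytes (86.3 and 3.98), and TRIM50, a ubiquitin ligase (29.4 and 0.73). SLC6A14, an amino acid transporter, was at 86.4 and 1.66 FPKM. In METAP1D, SERF2, DLGAP4, SNRPD1, GJB1 and ACSM3 the fold change over canonical exons was much smaller than by summed FPKM, or had no value. METAP1D was at 298 and 3.39 FPKM by the sum and at 23.5 and 3.37 over canonical exons, and ACSM3, a mitochondrial acyl-CoA synthetase, at 95.7 and 1.12 by the sum and 2.65 and 0 over canonical exons. The sizes of these decreases by summed FPKM therefore rest in part on bases outside the canonical exons.

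Lipid and energy metabolism showed lower values in several steps. In fatty acid synthesis 7 of 21 genes were past the threshold downward and none upward, with a median of −1.11. FADS2 and SCD, desaturases, were at 34.1 and 3.59 and at 327 and 56.9 FPKM, DGAT2, which makes triglyceride, at 33.3 and 4.31, and MLXIPL (ChREBP), a carbohydrate-responsive factor, at 32.8 and 5.35. FASN, the synthase itself, was at 113 and 51.9, a log2 fold change of −1.11. In fatty acid oxidation 8 of 20 genes were past the threshold downward and none upward, with a median of −1.24. HADH, a dehydrogenase of this cycle, was at 25.7 and 3.14, while CPT1A, which controls entry of fatty acids into mitochondria, was at 10.8 and 10.04. Sterol synthesis had 3 of 21 genes downward, LSS and DHCR7 among them, and a median of −0.86. Over all genes listed in both libraries, 7.34% were downward and 5.21% upward. Glycolytic genes had 6 of 23 downward and 2 upward: LDHA was at 719 and 98.6 FPKM and GAPDH at 555 and 1627. GAPDH shares reads with many processed pseudogenes.

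Genes of the cell cycle were lower. Of 39 genes of mitosis listed in both libraries, 18 were past the threshold downward and none upward, all 39 had a negative fold change, and the median was −1.37. TOP2A, topoisomerase II alpha on chromosome 17 from 40388525 to 40417896, was at 71.1 FPKM (68.0 to 74.3) in the control and 8.77 (7.33 to 10.2) after Cur and Pip. CENPA, the centromeric histone, was at 14.9 and 1.39 FPKM, MAD2L1, of the spindle checkpoint, at 29.2 and 3.71, and CCNB1, cyclin B1, at 53.8 and 12.3. Of 41 genes of G1/S and replication, 12 were past the threshold downward and none upward, with a median of −0.97. UHRF1, which maintains DNA methylation, was at 22.2 and 2.55 FPKM, TK1, thymidine kinase, at 80.8 and 13.6, and MCM3, of the replicative helicase, at 81.0 and 18.01. PCNA was at 257 and 182 FPKM and CCNE1, cyclin E1, at 16.7 and 15.4, so not all of the list was lower by as much. DNA repair genes had 4 of 25 past the threshold downward and none upward, with a median of −0.77. Over all genes listed in both libraries, 7.34% were past it downward.

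Further lists ranged from no call to 5 of 15 genes downward, against 7.34% of all genes listed in both libraries. None of 20 aminoacyl-tRNA synthetases was past the threshold, and of 30 proteasome subunits 1 was, upward. Of 45 ribosomal protein genes 6 were past it upward and none downward, with a median of 0.04; RPS14, at 355 and 1800 FPKM by the sum, and RPS25, at 99.1 and 494, are among them and share reads with pseudogenes. The nuclear-encoded respiratory chain had a median of −0.64 over 37 genes, with 2 downward and 1 upward. Of 21 interferon-stimulated genes 2 were downward and none upward, with a median of −0.80. Metallothioneins and zinc transporters had 3 of 9 downward, MT1F (39.9 and 5.39 FPKM), MT1G (216 and 42.1) and the zinc and iron importer SLC39A14 (328 and 34.99). MT2A was listed at 0 in the control and at 665 after Cur and Pip, with canonical depths of 265 and 526. Of 15 genes of iron handling, 5 were downward, among them HAMP, the hormone hepcidin, at 72.3 and 11.5 FPKM, and 1 upward, HMOX1. Of the fetal liver and hepatoma genes 3 of 9 were downward, PEG10 (253 and 27.0), CD24 (11.9 and 1.47) and LIN28B (33.6 and 8.10), and SPINK1 was upward (10.3 and 31.5). AFP, alpha-fetoprotein, was listed at 0 in the control, at 818 FPKM after NaB and at 356 after Cur and Pip.

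Genes assembled in 1 library alone were 954 after Cur and Pip and 770 in the control. The former were 498 protein-coding genes, 267 lncRNA genes and 174 pseudogenes, and the latter 593, 149 and 26. Transcripts under other genes covered the canonical exons of 217 of the 954 in the control, and of 251 of the 770 after Cur and Pip. The 5 protein-coding genes with the highest level assembled after Cur and Pip alone were ALB, APOA2, MT2A, CLIC1 and RPS12, and those in the control alone were APOE, RPL41, CALR, RPL21 and AKR1C2. Of these 10, ALB in the control and AKR1C2 after Cur and Pip had no depth over canonical exons. CALR, the ER chaperone calreticulin, was listed at 896 FPKM and at 0, with canonical depths of 561 and 158. In the others the exons were covered in both libraries, so listing at 0 did not mark silence there, and no fold change is given for genes listed at 0.

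The 283 and 591 genes past the threshold by both measures are described by the structure of their genes. Among protein-coding genes, the canonical transcript had a median of 2539 nt and 6 exons in the 240 higher genes, 2802 nt and 9 exons in the 575 lower genes, and 3494 nt and 10 exons in all 10179 listed in both libraries. Of the higher genes 23.3% had 3 exons or fewer, against 10.6% of the lower and 10.9% of all. Their median level in the control was 7.45 FPKM for the higher and 32.9 for the lower genes, and 12.5 for all. These are descriptions without a test, since genes are not replicates.

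The libraries also differed in what was assembled. Single-exon transcripts made up 16.4% of the transcripts in the control and 34.1% after Cur and Pip. Those inside introns and outside annotated exons numbered 939 in the control and 4185 after Cur and Pip. Those within 10000 nt downstream of a protein-coding gene numbered 415 and 910. Beyond genes on the same strand and this window there were 608 and 2442. This last class can hold transcripts inside genes that are antisense or have no strand. Single-exon transcripts over annotated exons numbered 2310 and 4949, and 96.7% and 95.1% of assembled introns matched GENCODE introns. After NaB with Cur and Pip 3728 single-exon transcripts lay inside introns, against 1617 after NaB alone. By type, the median log2 fold change was 0.47 for 503 lncRNA genes and 0.58 for 123 processed pseudogenes listed in both libraries, against −0.05 for protein-coding genes. The part that these transcripts have in the gene values was not tested beyond leaving them out.

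**Figure D3:**
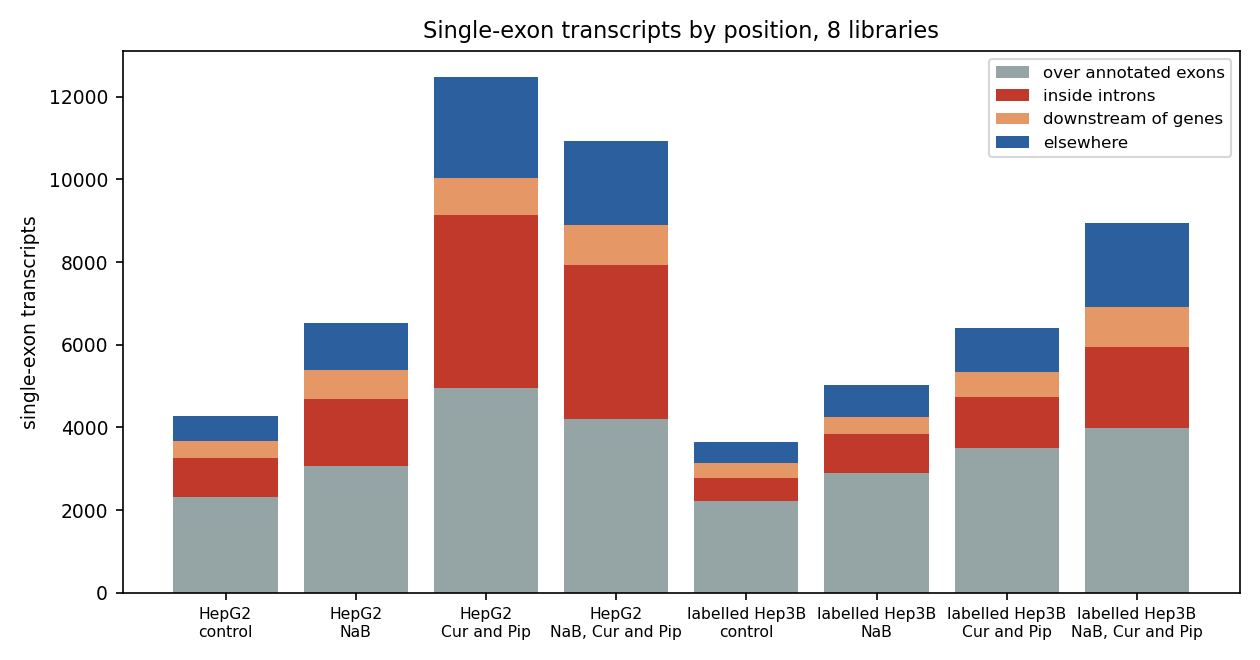
Number of single-exon transcripts in each of the 8 libraries (bars, stacked by position relative to GENCODE genes). In HepG2 those inside introns number 939 in the control and 4185 after Cur and Pip, and the 2 HepG2 libraries with Cur and Pip are the tallest bars; bars have no error since each condition has a single library.

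In other libraries that share none with this pair, most of the same genes went the same way. Of 505 genes higher after Cur and Pip and listed in all 4 HepG2 libraries, 84.0% were higher after NaB with Cur and Pip than after NaB, against 47.9% of all 9920 such genes, and 165 were past the threshold upward (4.05% of all genes in that pair were) and 12 downward. Of 723 lower genes, 90.7% were lower in that pair, against 52.1% of all, and 299 were past the threshold downward (6.17% of all genes were) and 6 upward. In the cells labelled Hep3B given Cur and Pip against their control, 73.9% of 472 higher genes and 76.4% of 556 lower genes kept their direction, against 48.5% and 51.5% of all. Few were past the threshold there (3.31% of all 11285 genes listed in both libraries were), 40 of the higher genes upward (1.84% of all genes were) and 3 downward, and 19 of the lower genes downward (1.47% of all genes were) and 9 upward. The libraries with this label list few hepatocyte genes, so most of the liver proteins above have no value in them.

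**Figure D4:**
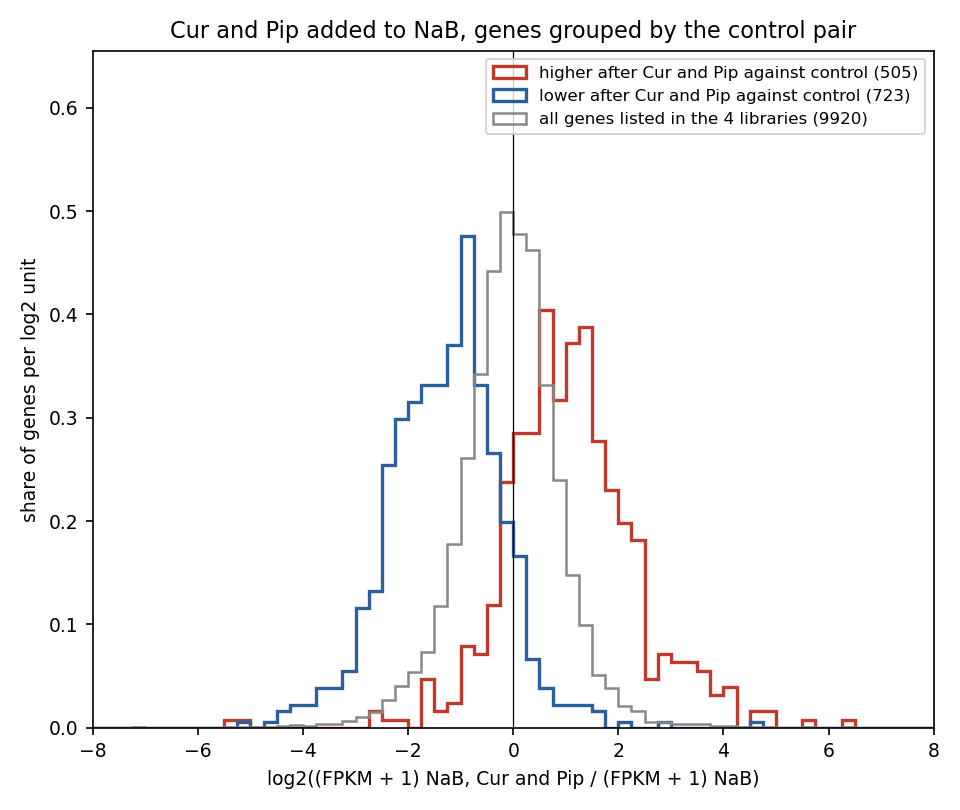
Distribution of the log2 fold change when Cur and Pip were added to NaB in HepG2 (x axis), as the share of genes per log2 unit (y axis), for the 505 genes higher (red) and the 723 lower (blue) after Cur and Pip against control and for all 9920 genes listed in the 4 libraries (grey). The red median is 1.06, the blue median −1.24 and the grey median −0.04.

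Particular groups differed in how far they moved in that pair. Immediate early genes had a median of 2.52 over 24 genes when Cur and Pip were added to NaB, and coagulation and complement genes −2.04 over 20. AQP3 was at 13.5 FPKM after NaB and 267 with Cur and Pip added, IL11 at 4.01 and 141, and SULT2A1 at 137 and 5.18. NR1H4 was at 38.9 and 1.23. By contrast, the median was −0.35 over 37 mitosis genes, 0.13 over 37 genes of G1/S and replication and −0.08 over 24 NRF2 targets. TK1 was at 26.1 FPKM after NaB and 16.0 with Cur and Pip added, MAD2L1 at 15.9 and 15.2, and HMOX1 at 51.9 and 83.9. CCL20, much lower after Cur and Pip against control, was nearly level in the NaB pair, at 58.9 and 55.7 FPKM. DKK1, a Wnt inhibitor, went the opposite way, from 105 to 16.4 FPKM after Cur and Pip against control and from 105 to 224 when they were added to NaB. MT1F (3.17 and 8.49 FPKM in the NaB pair), MT1G (43.2 and 57.4) and SPINK1 (25.7 and 3.22) were among others that differed in direction between the pairs. So did the ribosomal protein genes RPS28 (690 and 15.4), RPS14 (511 and 417) and RPS25 (402 and 345), while RPS24 (681 and 834) did not. GAPDH was at 629 and 216 FPKM in the NaB pair by the sum and at 628 and 566 over canonical exons, so that difference lies largely in which transcripts were assigned. TNFSF9 was at 1.14 FPKM after NaB and listed at 0 with Cur and Pip added, with canonical depths of 1.02 and 11.9. PPP1R15A was listed at 20.4 and 0 FPKM in the NaB pair, with canonical depths of 20.4 and 64.0. The large increases of these 2 genes by summed FPKM were thus not seen in the NaB pair. No test of the difference between these pairs was made for any list or gene.

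In the cells labelled Hep3B, the median of the immediate early genes was 0.00 over 24 genes, and those of NRF2 and ATF4 and CHOP targets were 0.33 over 24 and 0.72 over 26. HMOX1 was at 10.5 FPKM in the control with this label and 41.9 after Cur and Pip, SLC7A11 at 5.58 and 20.02, and GDF15 at 130 and 466. The immediate early genes went both ways with this label. FOS went from 168 to 48.2 FPKM and ATF3 from 40.3 to 18.7, the opposite direction to HepG2. IER5 (59.3 and 130 FPKM), KLF4 (4.30 and 9.70) and MAFF (9.50 and 18.6) were higher after Cur and Pip, the same direction as in HepG2.

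**Figure D5:**
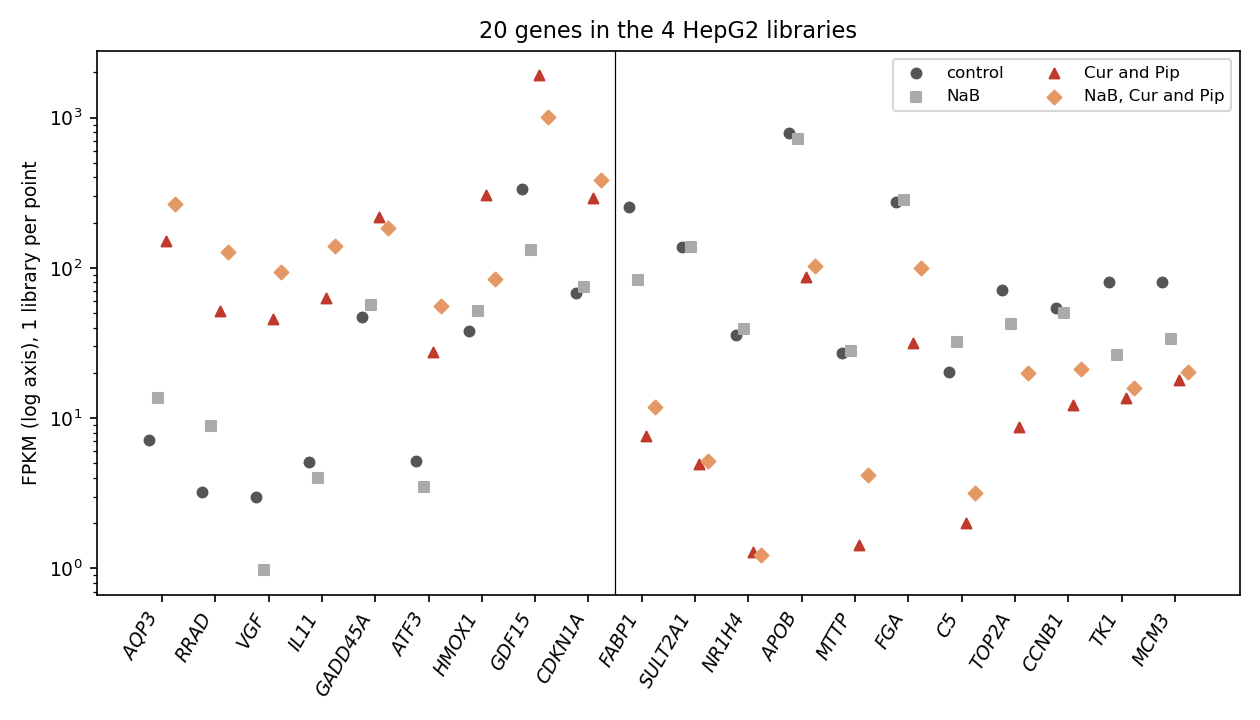
FPKM on a log axis of 20 genes in the 4 HepG2 libraries, 1 point per library without error bars; genes left of the line were higher and genes right of it lower after Cur and Pip than in the control. AQP3, SULT2A1 and NR1H4 lie far apart between libraries with and without Cur and Pip, whereas TK1 after NaB (26.1) lies closer to the libraries with Cur and Pip (13.6 and 16.0) than to the control (80.8).

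A limma fit over the 4 HepG2 libraries used the 2 pairs as the spread, with NaB as a term and 1 residual degree of freedom. Over 13463 genes none reached an adjusted p of 0.05 (Benjamini-Hochberg, two-sided); the smallest was 0.196, and 1989 genes had an unadjusted p under 0.05, 836 higher and 1153 lower. Over the 10010 genes listed in all 4 libraries, 1116 (11.1%) passed, 429 higher (4.29%) and 687 lower (6.86%) with Cur and Pip. The calls thus depend on leaving out genes listed at 0 in a library. Among them were 20 of 24 immediate early genes, all higher, 7 of 24 NRF2 targets, all higher, and 16 of 20 coagulation and complement genes, 11 of 17 acute phase proteins and 8 of 37 mitosis genes, all lower. Of the genes of G1/S and replication 3 of 37 were lower, and of the DNA repair genes 1 of 23. In the limma fit over all genes SULT2A1 had a log2 fold change of −4.51 ± 0.34 (SE) with an adjusted p of 0.196, which was 0.000497 over genes listed in all 4 libraries, and AQP3 had 4.21 ± 0.34 with limma adjusted p of 0.199 and 0.000497. CDKN1A had 2.21 ± 0.35 with limma adjusted p of 0.26 and 0.00484 in the same order, HMOX1 1.83 ± 0.73 with 0.379 and 0.0466, and TK1 −1.58 ± 0.61 with 0.373 and 0.0516. Each of these genes had the same direction in 2 of 2 pairs.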

How the data were processed

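RNA-seq libraries of HepG2 and of cells labelled Hep3B were used, 8 in all, 1 per condition. RNA was isolated in triplicate, and whether the triplicates were pooled is unknown. The authors mapped reads to GRCh38 with STAR and assembled transcripts per library with Cufflinks. FastQC and Cuffdiff are further tools in the submitters' processing notes. The version of each is "not given in the sources used here". Deposited were files that hold FPKM of assembled transcripts among other text attributes, with a 95% interval and a coverage, and no counts. Doses and the treatment time come from the study's methods.

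Transcripts were assigned to GENCODE release 44 with bedtools 2.31.1, and a gene without a transcript counts as 0. In the control a transcript of 125 nt holds an FPKM of 1.92e+08, and totals of FPKM therefore set no scale. Neighbouring genes under 1 transcript and near-identical genes cannot be kept apart. limma 3.58.1 in R 4.3.3 was fitted to log2(FPKM + 1). Other steps used Python 3.11.15, numpy 2.4.6, pandas 2.3.3 and matplotlib 3.10.9.

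The genes and the 56 gene lists were chosen with earlier results of these data known. Named were the 15 highest and 15 lowest protein-coding genes past 1.5 by both measures with an FPKM of at least 5, from each list at most 3 members at either end past 1.5 by both measures, the 5 highest genes listed in 1 library alone, the genes of the study's PCR, and TNFSF9, ACSM3 and SLC6A14. Some named genes are not reported here. Other genes, and the 20 plotted, were chosen after their values were seen.

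Tested on simulated data with counting error only, the fold rule found 92 of 100 genes raised and 68 of 100 lowered by 2 on the log2 scale among 11164, with 0 of 10964 unchanged genes called. The limma fit over genes listed in all 4 libraries found 156 of 200 genes changed by 1.5 among 10010, with 21 false calls. Its noise was drawn from the spread estimated by that same fit, without a NaB effect, so it cannot vouch for the 1116 calls. Alternatives were other pseudocounts, filters, thresholds, scaling, transcript sets and shares of exonic bases.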

Additional observations from a re-analysis of the deposited data

Results flagged for a closer look

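Single-exon transcripts away from annotated exons were more numerous after Cur and Pip than in the HepG2 control. There were 4185 inside introns and outside annotated exons, against 939 in the control. Outside genes on the same strand and the window downstream of protein-coding genes there were 2442, against 608 in the control. This class can hold transcripts inside genes that are antisense or have no strand. With 1 library per condition these differences have no replicate check, and their cause was not tested.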

How the results depend on the processing

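The count of 2583 genes past the threshold was 1128 with a pseudocount of 5, 4718 with a log2 threshold of 1 and 1566 with a threshold of 2. For genes listed in both libraries (1364) these counts were 657, 2994 and 624. By depth over canonical exons (1870) they were 756, 3623 and 1019, and 3182 with a pseudocount of 0.1. The limma fit called 0 genes over all genes, with a trended variance, over canonical exons and with a pseudocount of 5, 1116 over genes listed in all 4 libraries, and 2 over all 8 libraries. With a pseudocount of 0.1 the summed FPKM gave 3651 genes, 1843 higher and 1808 lower, and 1927 listed in both libraries, 889 higher and 1038 lower. Other alternatives moved no total by over 1.5 times: no filter, an FPKM of at least 5, median-of-ratios scaling, transcripts under 300 nt, single-exon or spanning transcripts left out, protein-coding genes only, 1 transcript (the largest) for each gene, at least 80% of the exonic bases, and disjoint Cufflinks intervals. With single-exon transcripts left out, 935 genes were higher and 1374 lower. Shares of genes with the same direction were 87.9% with NaB and 75.3% under the Hep3B label, and 89.5% and 76.0% over canonical exons and 89.0% and 76.1% with a pseudocount of 5. The planned restriction to genes listed in the libraries concerned is already part of these shares and was not run apart. Of the 141 named genes past the threshold, 117 remained past it with a pseudocount of 5 and 134 with the largest transcript, and none changed sign under any alternative. No paired analysis was possible because the labels carry no replicate numbers and each group has 1 library; the limma fit compares pairs of conditions, with NaB as a term. Fragment counts per gene were not used to filter or weigh genes. Coverage in the control set the counting error of the simulation, and the depth behind low genes was not examined.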
